A study of Homo sapiens with 21 samples.

Results

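The 10 genes described here belong to transforming growth factor beta (TGF-beta) and activin signalling, and were followed through senescence of human lung fibroblasts and through knockdown of cyclin D1 and its kinases. They are the ligand genes TGFB1, TGFB2, TGFB3 and INHBA, the activin-binding antagonist FST, the receptor genes TGFBR1, TGFBR2 and TGFBR3, and the signal transducers SMAD3 and SMAD7. They were taken by symbol from the 16383 genes of the deposited table, and were chosen with earlier results of these data known. All 10 were among the 11579 genes that passed the filter on low values. This filter kept genes with a normalised read count of at least 10 in at least 3 libraries. TGFB3 rested on 10 to 34 reads per library and each of the other 9 genes on at least 116.

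The 21 RNA libraries came from IMR90, an established human fetal lung fibroblast line, and the sample titles call the irradiated cells senescent. There were 7 groups of 3 libraries. Proliferating cells were neither irradiated nor transfected. The other 6 groups were irradiated, given 5 nM siRNA on day 4 and again on day 7, and harvested on day 10. Their siRNA was either of 2 non-targeting controls (NT3 or NT4) or was directed against CCND1 (cyclin D1), CDK4, CDK6 or both kinases (the dual knockdown). Since proliferating cells lacked both treatments, irradiation and transfection cannot be told apart in any comparison with them. The labels give 1 siRNA name per target, so an effect of the reagent cannot be told apart from an effect of the target, and they do not say whether the libraries of a group came from separate cultures. P-values therefore measure the spread between these libraries, which may be technical.

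TGF-beta is secreted in a latent complex, is released by integrins and proteases, and signals through a type II receptor (TGFBR2) that activates a type I receptor (TGFBR1), which phosphorylates SMAD2 and SMAD3. Activin A, a dimer of the INHBA product, uses other receptors but the same SMADs, and follistatin, the FST product, binds activin and keeps it from its receptors. SMAD7 is an inhibitor that the pathway induces against itself. In fibroblasts the pathway is known for driving matrix production and the contractile myofibroblast state, and both TGF-beta and activin A belong to the secretome of senescent cells.

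INHBA and FST transcripts fell together in the CDK6 and dual knockdowns, while TGFB2 transcripts rose against both controls in the dual knockdown only. For this reason the sequences just upstream of INHBA, FST and TGFB2 are shown. Each is the 250 bases before the transcription start given by RefSeq on GRCh38.p14, written 5′ to 3′ on the gene's own strand, with matches to the searched motifs in capitals. The start is also that of the canonical GENCODE 44 transcript, and longer INHBA transcripts begin further upstream, so the INHBA window lies inside the gene's annotated span.
INHBA (chr7:41703091-41703340, minus strand): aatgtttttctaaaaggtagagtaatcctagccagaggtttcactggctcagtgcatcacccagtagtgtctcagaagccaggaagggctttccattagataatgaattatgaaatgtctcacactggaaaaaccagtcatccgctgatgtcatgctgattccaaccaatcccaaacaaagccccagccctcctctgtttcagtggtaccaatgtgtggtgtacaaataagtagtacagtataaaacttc
FST (chr5:53480379-53480628, plus strand): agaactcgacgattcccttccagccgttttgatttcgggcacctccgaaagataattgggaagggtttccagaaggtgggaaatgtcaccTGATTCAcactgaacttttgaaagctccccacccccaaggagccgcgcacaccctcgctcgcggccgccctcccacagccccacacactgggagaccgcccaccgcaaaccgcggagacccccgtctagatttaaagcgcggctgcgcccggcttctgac
TGFB2 (chr1:218345086-218345335, plus strand): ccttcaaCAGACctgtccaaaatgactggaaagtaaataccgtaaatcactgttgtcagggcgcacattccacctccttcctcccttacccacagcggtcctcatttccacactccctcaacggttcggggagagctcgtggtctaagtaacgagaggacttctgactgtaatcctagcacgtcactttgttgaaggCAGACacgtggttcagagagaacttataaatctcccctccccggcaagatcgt
Searched on both strands were the AP-1 site TGANTCA, the cyclic AMP response element TGACGTCA, the SMAD-binding box CAGAC and the SMAD palindrome GTCTAGAC, none of which contains another. The FST window held 1 AP-1 match, TGATTCA, beginning 160 bases before the start, and 6.59% of 34943 promoter windows of this length held at least 1 AP-1 match. The TGFB2 window held 2 SMAD boxes, beginning 243 and 53 bases before the start. The SMAD7 window also held 2, at 217 and 128 bases, and the TGFBR1 window held 1, at 213 bases on the other strand. A SMAD box was present in 38% of all windows, a cyclic AMP response element in 1.63% and a SMAD palindrome in 0.183%. No searched motif matched the INHBA window, which says only that these letters are not in it.

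Between 12892442 and 21822152 reads per library fell in listed genes. All 10 fibroblast markers examined were present in all 21 libraries (COL1A1 at 186736 to 419002). Of 13 markers of other cell types, CDH1, SFTPC, PECAM1, CDH5, VWF, KDR, PTPRC and CD3E stayed at 22.3 or below and EPCAM at 47.8 or below, whereas KRT8, KRT18, KRT19 and CD68, which other cells also express, were present in every library (KRT18 at 826 to 1995, CD68 at 650.2 to 1588). Each targeted gene was lower in its knockdown: CCND1 averaged 4633 against 32092 in NT3 and 46302 in NT4, CDK4 averaged 108.1 in its own and 117 in the dual knockdown against 1219 and 1276, and CDK6 averaged 773 and 968 against 5069 and 4342. The proliferation marker MKI67 averaged 8163 in proliferating cells, 656 in NT3 and 674 in NT4. It averaged 988 in CDK4, 415 in CDK6, 424 in CCND1 and 98.5 in dual knockdown. NT3 replicate 3 stood apart: the standard deviation of its log2 deviations from the group mean was 0.344 over the tested genes, against 0.193 to 0.256 in the other 20 libraries. The column headers number the irradiated libraries in 3 runs of consecutive numbers, each holding 1 library of every irradiated group; these are called header series here, and the labels do not say what they stand for.

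Levels are given as normalised read counts, that is reads divided by the size factor the authors assigned to the library. Differences are log2 differences of the count plus 1, fitted with limma over all 7 groups and adjusted by the Benjamini-Hochberg method over all tested genes; a difference is called where the adjusted p is under 0.05. In bulk RNA a lower level can come from fewer cells expressing a gene or from less RNA per cell, and these cannot be told apart.

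**Figure D1:**
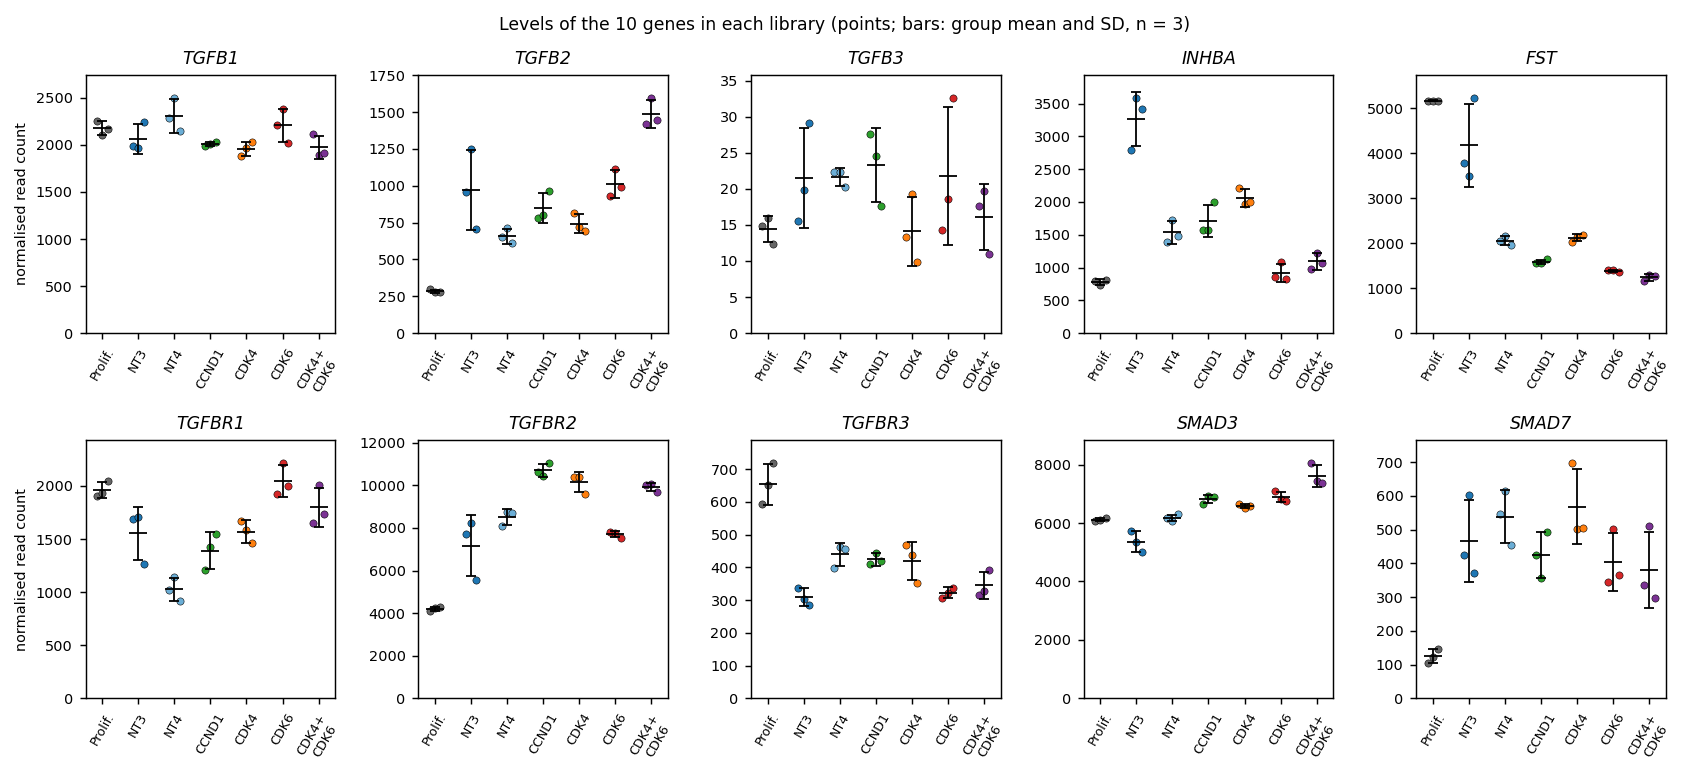
Normalised read counts (vertical axes, from 0) of the 10 genes in each of the 21 libraries by group; points are libraries, and bars give the group mean and SD (n = 3). SMAD7 stood at 125 on average in proliferating cells and at 296 to 696 in all irradiated libraries, and INHBA was highest in NT3.

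INHBA (chr7:41667168-41705834, minus strand, 3 exons; positions are gene spans and exon numbers those of the canonical GENCODE 44 transcript) encodes the subunit of activin A. It rose in senescent controls and was lower again, near the proliferating level, when CDK6 was knocked down. Its level was 796, 731 and 808 in the 3 proliferating libraries, 2799, 3584 and 3410.1 in NT3 and 1397, 1731 and 1483 in NT4. The 3 groups did not overlap. The mean of the controls was 2.86-fold the proliferating level, a log2 difference of 1.52 (SE 0.10, adjusted p = 1.54e-11), and it was 2.06 (adjusted p = 1.25e-12) for NT3 and 0.98 (adjusted p = 2.47e-07) for NT4. INHBA stood at 861, 1078 and 819 in CDK6 knockdown, below every control library and above every proliferating one. The difference from the controls was -1.29 (SE 0.10, adjusted p = 2.43e-09), with -1.83 (adjusted p = 9.21e-11) against NT3 and -0.75 (adjusted p = 4.85e-05) against NT4. In the dual knockdown it stood at 977, 1229.5 and 1075, again below every control library. That difference was -1.03 (SE 0.10, adjusted p = 4e-08), with -1.57 (adjusted p = 6.24e-10) against NT3 and -0.49 (adjusted p = 0.00232) against NT4.

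CDK4 and CCND1 knockdown differed from NT3 and from NT4 in unlike ways for INHBA. In CDK4 knockdown INHBA stood at 2216, 1967 and 1994, between the libraries of the controls. The log2 difference was -0.66 (adjusted p = 0.000278) against NT3 and 0.43 (adjusted p = 0.0199) against NT4, both called and opposite in direction, and the difference from their mean was -0.12 (adjusted p = 0.494). In CCND1 knockdown it stood at 1569, 1569 and 1995. The called difference was -0.39 (SE 0.10, adjusted p = 0.00575). NT3 alone gave -0.93 (adjusted p = 2.82e-06) and NT4 alone gave 0.15 (adjusted p = 0.406). CDK6 and CDK4 knockdown compared directly, with no control in the comparison, differed by -1.17 (SE 0.12, adjusted p = 9.32e-08), and their libraries did not overlap.

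TGFB2 (chr1:218345336-218444619, plus strand, 7 exons), which encodes a secreted TGF-beta isoform, was the ligand gene that rose in senescent controls and rose further in the dual knockdown. It stood at 297, 279.9 and 278 in proliferating cells, 957, 1250.0 and 709 in NT3 and 652, 712 and 609 in NT4. The controls were 2.76-fold the proliferating level, a log2 difference of 1.47 (SE 0.12, adjusted p = 3.07e-10). The dual knockdown had 1419, 1595 and 1444, above every other library of the study. It exceeded the controls by 0.91 (SE 0.12, adjusted p = 1.85e-06), with 0.65 (adjusted p = 0.000529) against NT3 and 1.18 (adjusted p = 6.25e-07) against NT4. TGFB2 stood at 929, 1114 and 993 in CDK6 knockdown, inside the range of NT3 and above all NT4 libraries. Its called difference of 0.36 (adjusted p = 0.0185) was 0.62 (adjusted p = 0.00134) against NT4 and 0.093 (adjusted p = 0.605) against NT3. Without CDK6 replicate 2 it was 0.29 (adjusted p = 0.11). In CDK4 knockdown the level was 817, 718 and 693 and in CCND1 knockdown 778, 800.2 and 968, and neither differed from the controls by the test, at -0.090 (adjusted p = 0.67) and 0.10 (adjusted p = 0.555).

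TGFB1 (chr19:41301587-41353922, minus strand, 7 exons), the isoform most studied in fibrosis, lay in the range of 1881 to 2497 in all 21 libraries. Group means ran from 1959 in CDK4 knockdown to 2309 in NT4, and each group overlapped its neighbour in that order. The senescent controls and proliferating cells differed by 0.0015 (SE 0.061, adjusted p = 0.984). None of the 4 knockdowns passed the threshold against the mean of the controls, with values from -0.15 in CDK4 to 0.014 in CDK6 knockdown. Against NT4 alone, the CDK4 and dual knockdowns were called lower, at -0.23 (adjusted p = 0.0316) and -0.23 (adjusted p = 0.0149). The dual knockdown was also called lower in 4 of the fits with 1 control or dual library left out, at -0.16 (adjusted p = 0.0489) to -0.19 (adjusted p = 0.0306), and with DESeq2, at -0.15 (adjusted p = 0.0354). After quantile normalization TGFB1 was called lower in dual knockdown, at -0.22 (adjusted p = 0.00513), and in CCND1 knockdown, at -0.17 (adjusted p = 0.0338). TGFB3 (chr14:75958097-75983011, minus strand, 7 exons), the remaining isoform, was at 9.81 to 32.6 throughout. No comparison of TGFB3 passed the threshold, and at 10 to 34 reads per library its standard error was 0.28 or more on the log2 scale in each.

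Among the isoforms, TGFB2 moved against a nearly level TGFB1. The log2 ratio of TGFB2 to TGFB1 reads within a library, which does not depend on library scaling, averaged -2.93 ± 0.026 (SD, n = 3) in proliferating cells. It averaged -1.12 ± 0.51 (SD, n = 3) in NT3 and -1.81 ± 0.0046 (SD, n = 3) in NT4. It was -0.41 ± 0.16 (SD, n = 3) in the dual knockdown, the group in which the isoforms came closest. CDK6 knockdown had -1.12, CCND1 knockdown -1.25 and CDK4 knockdown -1.40 on average. Per kilobase of annotated exon the order of the ligand and antagonist genes in proliferating cells was FST at 1876, TGFB1 at 667, INHBA at 93.9, TGFB2 at 47.1 and TGFB3 at 2.76 normalised reads.

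FST (chr5:53480626-53487134, plus strand, 6 exons) encodes follistatin, the extracellular binder of activin. Unlike INHBA it was highest in proliferating cells, and it fell against both controls in CCND1, CDK6 and dual knockdown. Its level was 5155, 5169 and 5168 in proliferating cells, 3790.2, 3498 and 5223 in NT3 and 2047, 2159 and 1963 in NT4. NT3 replicate 3 lay above the proliferating ones while the others of both controls lay below them. The log2 difference of the controls from proliferating cells was -0.83 (SE 0.081, adjusted p = 7.21e-09), which was -0.33 (adjusted p = 0.00368) for NT3 and -1.33 (adjusted p = 5.3e-11) for NT4. FST stood at 1392, 1406 and 1361 in CDK6 knockdown, 1152, 1293 and 1264 in the dual knockdown and 1557, 1561 and 1638 in CCND1 knockdown. All 9 of these libraries lay below all control libraries. The differences from the mean of the controls were -1.07 (SE 0.081, adjusted p = 1.44e-09), -1.23 (SE 0.081, adjusted p = 8.39e-11) and -0.87 (SE 0.081, adjusted p = 7.83e-08).

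Against NT4 alone, the control with the lower FST level, the falls of FST were smaller: -0.57 (adjusted p = 7.93e-05) for CDK6, -0.73 (adjusted p = 2.29e-06) for dual and -0.37 (adjusted p = 0.00663) for CCND1 knockdown. FST in CDK4 knockdown stood at 2029.6, 2143 and 2189.6, overlapping NT4. Its called difference of -0.45 (adjusted p = 0.000457) was -0.95 (adjusted p = 1.85e-07) against NT3 and 0.045 (adjusted p = 0.828) against NT4. CDK6 knockdown had less FST than CDK4 knockdown in the direct comparison, at -0.61 (SE 0.093, adjusted p = 2.33e-05).

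INHBA rose and FST fell with senescence, and both fell with CDK6 knockdown. The log2 ratio of INHBA to FST reads in the same library was -2.70, -2.82 and -2.68 in the 3 proliferating libraries. It averaged -0.34 ± 0.34 (SD, n = 3) in NT3 and -0.42 ± 0.12 (SD, n = 3) in NT4, and ranged among the knockdowns from -0.60 in CDK6 to 0.10 in CCND1 knockdown. The ratio is given as a description without a test.

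**Figure D2:**
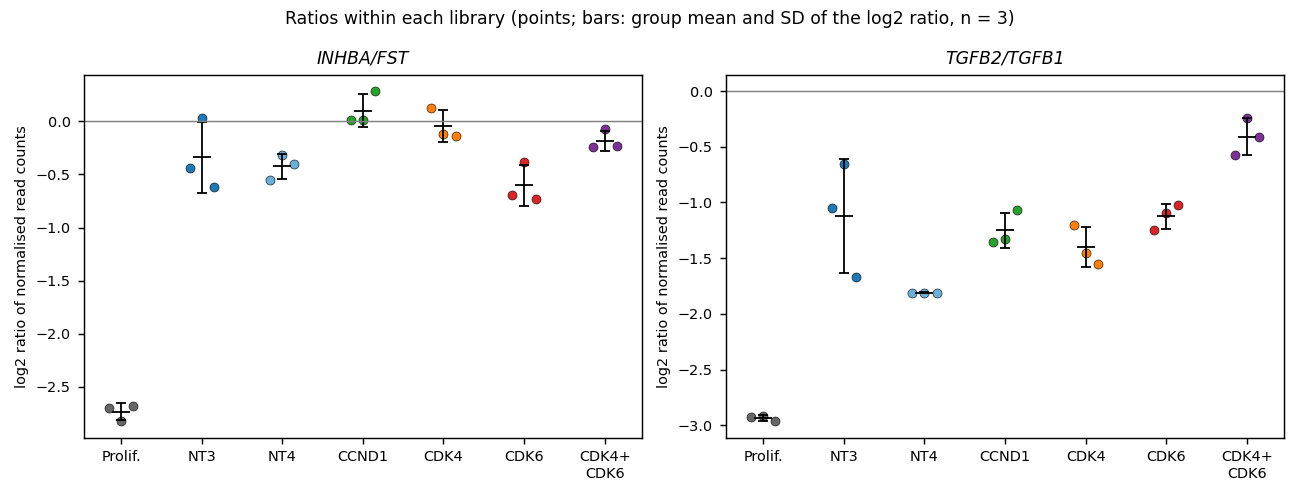
The log2 ratios of INHBA to FST and of TGFB2 to TGFB1 normalised read counts within each library, by group; points are libraries, and bars give the group mean and SD (n = 3). The proliferating group averaged -2.73 and -2.93, and the dual knockdown had the highest mean ratio of TGFB2 to TGFB1, -0.41.

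TGFBR1 (chr9:99104038-99154192, plus strand, 9 exons) encodes the type I receptor kinase that phosphorylates SMAD2 and SMAD3. It was lower in senescent controls than in proliferating cells, and in CDK6 knockdown it overlapped the proliferating libraries. It stood at 1910.2, 1936 and 2049.7 in proliferating cells, 1685, 1706 and 1267 in NT3 and 1019, 1139.6 and 921 in NT4. All 6 control libraries lay below the proliferating ones, with a log2 difference of -0.65 (SE 0.094, adjusted p = 3.02e-06). CDK6 knockdown had 1922, 2213 and 2003, above all control libraries. The rise over the controls was 0.70 (SE 0.094, adjusted p = 4.07e-06), with 0.41 (adjusted p = 0.00417) against NT3 and 0.997 (adjusted p = 4.92e-07) against NT4. The dual knockdown had 1653, 2007 and 1735 and differed by 0.51 (adjusted p = 0.000143), but only by 0.22 (adjusted p = 0.107) against NT3, whose libraries it overlapped. TGFBR1 in CDK4 knockdown stood at 1671, 1582 and 1460.4. The called difference of 0.32 (adjusted p = 0.0228) was 0.028 (adjusted p = 0.879) against NT3 and 0.62 (adjusted p = 0.000526) against NT4. It was lost without NT4 replicate 3 (0.28, adjusted p = 0.0533), CDK4 replicate 1 (0.28, adjusted p = 0.123) or CDK4 replicate 2 (0.32, adjusted p = 0.0877). CCND1 knockdown, at 1208, 1423 and 1545, did not pass the test against the mean of the controls, with 0.14 (adjusted p = 0.266), and was called against NT4 alone, with 0.44 (adjusted p = 0.00667).

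TGFBR2 (chr3:30606601-30694142, plus strand, 7 exons) encodes the type II receptor, which binds TGF-beta first. It rose with senescence and was higher again in the CCND1, CDK4 and dual knockdowns but not in CDK6 knockdown. It stood at 4101, 4246 and 4289.8 in proliferating cells, 7709, 8240.1 and 5559 in NT3 and 8079.8, 8737 and 8717 in NT4. Every control library exceeded every proliferating one, with a log2 difference of 0.88 (SE 0.078, adjusted p = 1.71e-09). CCND1 knockdown had 10614, 10454 and 11032, a rise of 0.46 (SE 0.078, adjusted p = 0.000123) that was also called against NT3, with 0.60 (adjusted p = 2.68e-05), and against NT4, with 0.33 (adjusted p = 0.0125). CDK4 knockdown had 10405, 10412 and 9609 and the dual knockdown 10018, 10048 and 9685. Both groups lay above all control libraries, by 0.39 (adjusted p = 0.00157) and 0.35 (adjusted p = 0.000919). Neither was called against NT4 alone, with 0.25 (adjusted p = 0.0767) and 0.22 (adjusted p = 0.0603), and after quantile normalization the dual value was 0.21 (adjusted p = 0.0506). CDK6 knockdown had 7809.7, 7766 and 7547, inside the range of the controls, and lay below CDK4 knockdown, at -0.40 (SE 0.090, adjusted p = 0.00163).

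TGFBR3 (chr1:91680343-91906335, minus strand, 17 exons) encodes betaglycan, a co-receptor that presents TGF-beta, TGFB2 above all, to the type II receptor. It fell with senescence and no knockdown moved it away from both controls. Proliferating libraries had 593, 651 and 717, NT3 338, 302 and 286 and NT4 399.5, 463 and 456. The highest of the 18 irradiated libraries, at 467, lay below the lowest proliferating one. The difference of the controls from proliferating cells was -0.82 (SE 0.093, adjusted p = 6.86e-08), and NT4 exceeded NT3 by 0.51 (adjusted p = 0.00127). The CCND1 and CDK4 knockdowns were near NT4, at 409 to 445 and 353 to 467. The CDK6 and dual knockdowns were near NT3, at 305 to 338 and 316 to 392. CCND1 and CDK4 knockdown were called against NT3, at 0.46 (adjusted p = 0.002) and 0.43 (adjusted p = 0.00493), and not against NT4. CDK6 and dual knockdown were called against NT4, at -0.44 (adjusted p = 0.00298) and -0.35 (adjusted p = 0.0137), and not against NT3. CDK6 lay below CDK4 knockdown, at -0.37 (SE 0.11, adjusted p = 0.00975), and without CDK4 replicate 1 at -0.29 (adjusted p = 0.0681). Per kilobase of annotated exon TGFBR2 was the most abundant of the 3 receptor transcripts in every group and TGFBR3 the least, at 615 and 76.2 in proliferating cells, with TGFBR1 at 246.

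SMAD3 (chr15:67063763-67195173, plus strand, 9 exons), the transcription factor that carries the TGF-beta and activin signal to the nucleus, was higher in all 4 knockdowns by small amounts. It stood at 6052, 6118 and 6177 in proliferating cells, 5730.4, 5339 and 5011 in NT3 and 6163, 6067 and 6296 in NT4. The mean of the senescent controls did not differ from proliferating cells by the test, at -0.089 (SE 0.044, adjusted p = 0.0795). NT3 alone was called lower, at -0.19 (adjusted p = 0.00233). NT4 alone was not called, at 0.014 (adjusted p = 0.827). Without NT3 replicate 1 the difference of the mean was called, at -0.11 (adjusted p = 0.0238). All 4 knockdowns lay above all control libraries. The dual knockdown was the highest, at 8041, 7428 and 7372, with a difference of 0.40 (SE 0.044, adjusted p = 2.07e-07), and it was called against NT3, at 0.51 (adjusted p = 6.1e-08), and NT4, at 0.30 (adjusted p = 8.45e-05). CDK6 knockdown stood at 7087, 6823 and 6764, a difference of 0.26 (adjusted p = 6.89e-05) that was also called against each control. SMAD3 in CCND1 knockdown, at 6652 to 6910.5, and in CDK4 knockdown, at 6518 to 6647, was called higher than the mean of the controls by 0.25 (adjusted p = 0.000256) and 0.20 (adjusted p = 0.0039). Against NT4 alone these were 0.14 (adjusted p = 0.0558) and 0.093 (adjusted p = 0.284).

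SMAD7 (chr18:48919853-48950965, minus strand, 4 exons), the inhibitory SMAD that recruits ubiquitin ligases to the type I receptor, had the largest rise with senescence among the 10 genes. Proliferating libraries had 105.7, 123 and 147, NT3 425, 604 and 373 and NT4 548, 613 and 455. The controls were 3.95-fold the proliferating level, a log2 difference of 1.98 (SE 0.18, adjusted p = 1.84e-09), and all 18 irradiated libraries lay above all proliferating ones. It stood at 424, 357 and 493 in CCND1, 696, 502 and 505 in CDK4, 346, 501 and 364 in CDK6 and 336, 509.9 and 296 in dual knockdown, all overlapping the controls. No knockdown passed the threshold against the mean of the controls, with -0.23 (adjusted p = 0.343) for CCND1, 0.18 (adjusted p = 0.546) for CDK4, -0.31 (adjusted p = 0.169) for CDK6 and -0.42 (adjusted p = 0.0625) for dual knockdown. The dual value was -0.30 (adjusted p = 0.239) against NT3 alone and -0.53 (adjusted p = 0.0478) against NT4 alone, which was called. It was also called without NT3 replicate 3 (-0.49, adjusted p = 0.0139), NT4 replicate 3 (-0.47, adjusted p = 0.045) or dual replicate 2 (-0.65, adjusted p = 0.00871).

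SMAD7 was highest in the third header series in all 6 irradiated groups, with a mean log2 deviation from the group mean of 0.32, against -0.19 and -0.13 in the other series. INHBA, TGFB2 and TGFBR1 were likewise highest in the third series in all 6 groups, by a mean of 0.18, 0.18 and 0.14. Of all tested genes 1.57% were highest in the same series in all 6 groups. Within the 3 series, CDK6 knockdown differed from the mean of the controls by -0.18, -0.48 and -0.28 for SMAD7 and the dual knockdown by -0.47, -0.52 and -0.25. For INHBA the same values were -1.46, -1.20 and -1.21 and -1.06, -1.02 and -1.02, and for TGFB2 in the dual knockdown they were 1.13, 0.84 and 0.76. A fit with the series as a block, added after the data were seen, left these differences as they were and called SMAD7 lower in CDK6 knockdown (adjusted p = 0.0177), in dual knockdown (adjusted p = 0.0023) and in CDK6 against CDK4 knockdown (-0.49, adjusted p = 0.00234). It also called INHBA in the departure from additivity of the dual knockdown, at 0.37 (adjusted p = 0.0148). Proliferating libraries are outside these series.

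**Figure D3:**
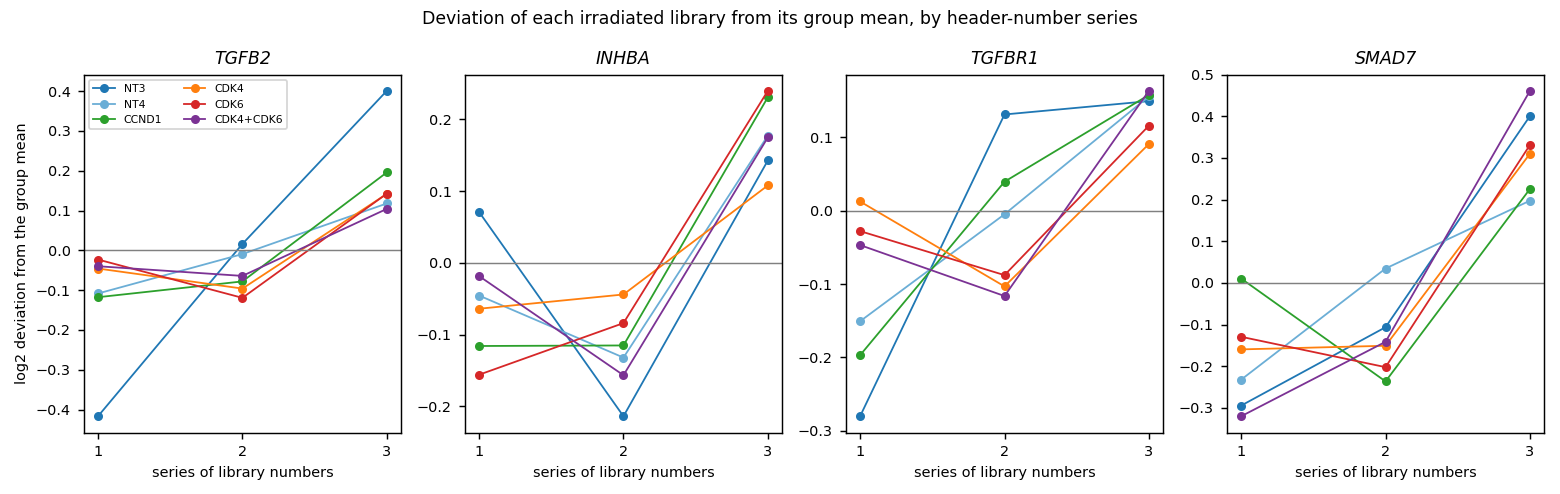
Deviation of each irradiated library from its group mean (log2 of the normalised read count plus 1, vertical axes with a separate range per gene) by header series for the 4 members that were highest in the third series in all 6 groups; lines join the 3 libraries of a group. The mean deviation in the third series was 0.32 for SMAD7, 0.18 for TGFB2, 0.18 for INHBA and 0.14 for TGFBR1.

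Senescent controls against proliferating cells ask what irradiation and transfection changed. Of the 10 genes, 4 were called higher (TGFB2, INHBA, TGFBR2 and SMAD7) and 3 lower (FST, TGFBR1 and TGFBR3), and these 7 were called in the same direction against each control, as were 52.4% of all tested genes. Among all tested genes 68.6% were called in this comparison, 32.6% higher and 36.1% lower, so the members' share was near the background. Their median log2 difference was 0.27 and that of all tested genes -0.026. The split of all calls moved with the scaling: 47.4% of called genes were higher as deposited and 57.9% after median centring, which shifted the median gene by 0.11. Under that scaling the 7 members kept their directions and calls, and TGFB3 was also called, at 0.65 (adjusted p = 0.0488).

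The 2 non-targeting siRNAs, both given to irradiated cells, ask how far reagents without a target differ from each other. NT4 against NT3 gave 7 called members, 3 higher (TGFBR2, TGFBR3 and SMAD3) and 4 lower (TGFB2, INHBA, FST and TGFBR1), where 27.8% of all genes were called, 14.7% higher and 13.1% lower. INHBA differed by -1.08 (SE 0.12, adjusted p = 5.7e-07) and FST by -0.999 (SE 0.093, adjusted p = 7.58e-08). TGFBR1 differed by -0.59 (adjusted p = 0.000372) and TGFB2 by -0.53 (adjusted p = 0.00604), with overlapping libraries for TGFB2. In the limma fit of the compared groups alone, TGFB2 (adjusted p = 0.118), TGFBR2 (adjusted p = 0.277) and SMAD3 (adjusted p = 0.165) were not called. TGFBR2, at 0.27 (adjusted p = 0.0318), was 0.094 (adjusted p = 0.163) without NT3 replicate 3, 0.25 (adjusted p = 0.0868) without NT4 replicate 2 and 0.25 (adjusted p = 0.0956) without NT4 replicate 3.

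Against the mean of the controls, CCND1 knockdown gave 2 members higher (TGFBR2 and SMAD3) and 2 lower (INHBA and FST), where 31% of all genes were called, 16.7% higher and 14.4% lower. FST and TGFBR2 were called in the same direction against both controls, as were 11.6% of all tested genes. CDK4 knockdown gave 3 higher (TGFBR1, TGFBR2 and SMAD3) and 1 lower (FST), where 16% of all genes were called, 8.46% higher and 7.55% lower. None of them was called against both controls, as were 4.67% of all tested genes.

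CDK6 knockdown gave 3 members higher (TGFB2, TGFBR1 and SMAD3) and 2 lower (INHBA and FST), where 41.9% of all genes were called, 21.1% higher and 20.8% lower. INHBA, FST, TGFBR1 and SMAD3 were called against both controls, as were 21% of all tested genes. The dual knockdown gave 4 higher (TGFB2, TGFBR1, TGFBR2 and SMAD3) and 2 lower (INHBA and FST), where 44% of all genes were called, 22.5% higher and 21.5% lower. TGFB2, INHBA, FST and SMAD3 were called against both controls, as were 23.6% of all tested genes. The median absolute log2 difference of the members was 0.42 in the dual knockdown and 0.29 in CDK6 knockdown, against 0.22 and 0.21 over all tested genes. These comparisons share their control libraries, so their values stand side by side without a test between them.

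**Figure D4:**
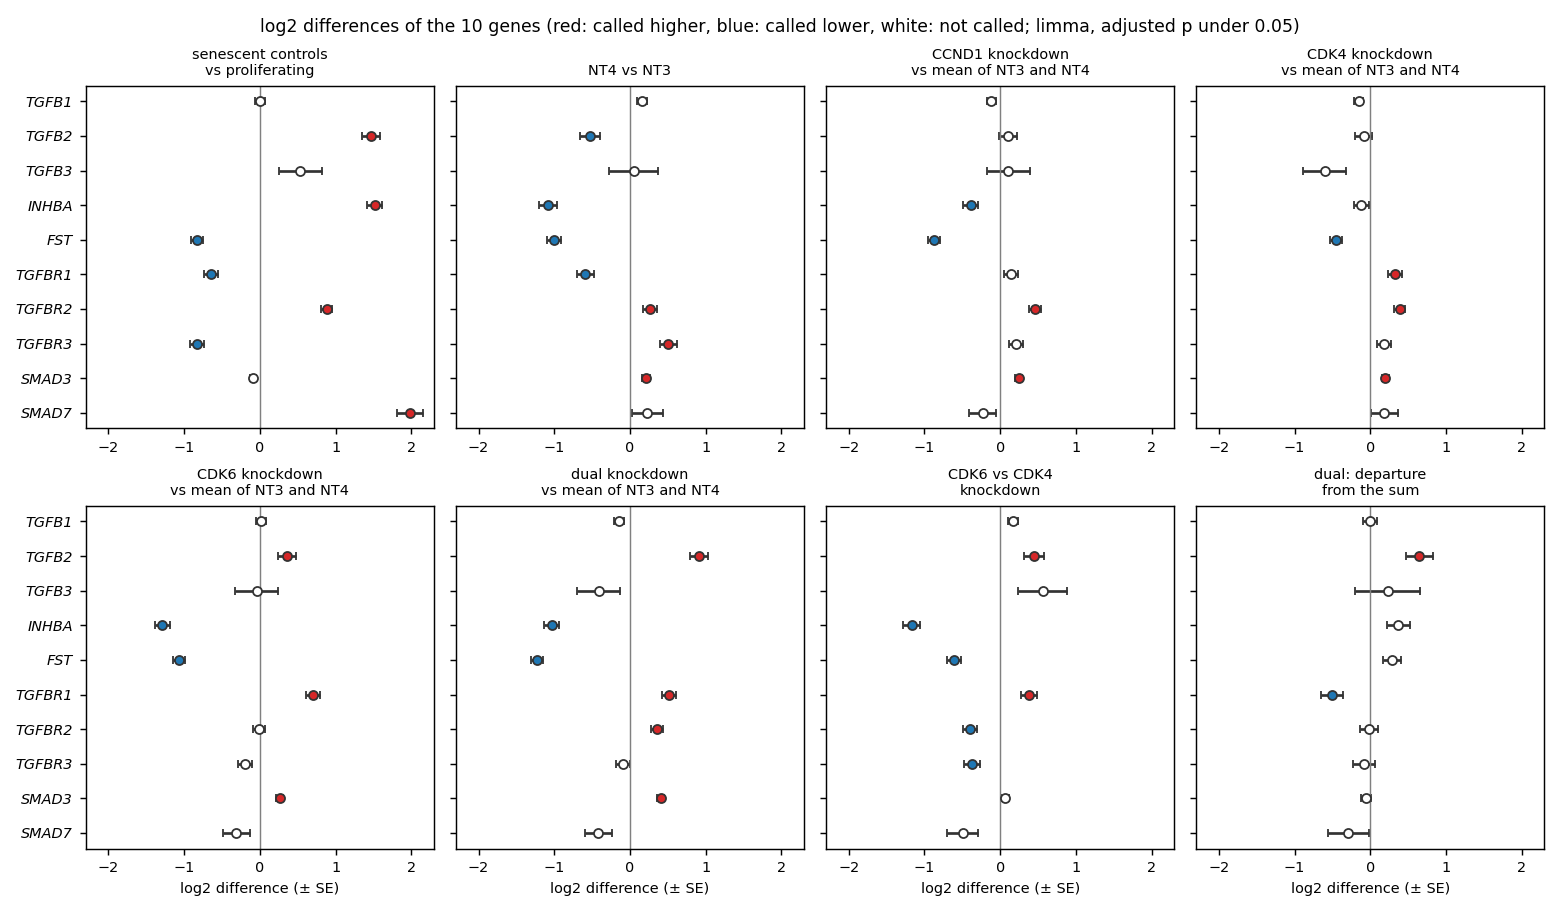
log2 differences of the 10 genes (horizontal axes, with standard errors) in 8 comparisons; red points were called higher, blue points lower and white points were not called (limma, adjusted p under 0.05). INHBA stood at 1.52 in senescent controls against proliferating cells, at -1.29 in CDK6 and at -1.03 in dual knockdown against the controls.

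CDK6 against CDK4 knockdown asks whether these 2 siRNA treatments differ, with no control group in the comparison. With 1 siRNA name per target, kinase and reagent cannot be told apart in it. TGFB2 and TGFBR1 were higher in CDK6 knockdown, by 0.45 (adjusted p = 0.0133) and 0.38 (adjusted p = 0.0091), and INHBA, FST, TGFBR2 and TGFBR3 lower. These were 6 of 10 members, where 34.8% of all genes were called, 17.5% higher and 17.3% lower. INHBA showed the largest of these differences, -1.17. The 2 siRNAs without a target, NT4 against NT3, differed by -1.08 for INHBA and -0.999 for FST, with 7 called members. TGFB2 was 0.40 (adjusted p = 0.0561) without CDK4 replicate 3 and 0.37 (adjusted p = 0.0673) without CDK6 replicate 2, and TGFBR1 was 0.32 (adjusted p = 0.0502) without CDK6 replicate 2. The test of whether both siRNAs together gave more or less than the CDK4 and CDK6 effects added up (the departure from additivity) called 2 members, where 6.35% of all genes were called, 2.63% higher and 3.71% lower. TGFB2 was higher in the dual knockdown than the sum, by 0.65 (SE 0.18, adjusted p = 0.0341), and TGFBR1 lower, at -0.51 (SE 0.14, adjusted p = 0.0359). Each call was lost in 8 of the fits with 1 library left out. Over all 27 alternative settings TGFB2 was not called in 10 and TGFBR1 in 11. Neither held against both controls: TGFB2 gave 0.91 (adjusted p = 0.00252) with NT3 and 0.38 (adjusted p = 0.33) with NT4, and TGFBR1 gave -0.22 (adjusted p = 0.349) and -0.80 (adjusted p = 0.00276). INHBA and FST, which fell in both CDK6 and dual knockdown, did not pass this test, at 0.37 (adjusted p = 0.168) and 0.29 (adjusted p = 0.179). With NT3 alone both passed it, at 0.91 (adjusted p = 0.000653) and 0.79 (adjusted p = 0.000288), and with NT4 alone neither did, at -0.17 (adjusted p = 0.682) and -0.21 (adjusted p = 0.462). FST passed it without NT3 replicate 2 (0.35, adjusted p = 0.0397) or NT3 replicate 3 (0.20, adjusted p = 0.0469).

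Leaving out 1 library also brought other differences past the threshold. Without NT3 replicate 3, CDK6 knockdown was called lower for TGFBR2 (-0.095, adjusted p = 0.0436) and TGFBR3 (-0.22, adjusted p = 0.049), and NT4 was called higher than NT3 for TGFB1 (0.22, adjusted p = 0.0122). TGFBR3 was called higher in CDK4 knockdown without CDK4 replicate 3 (0.30, adjusted p = 0.0472). In CDK6 against CDK4 knockdown, SMAD7 was called lower without CDK6 replicate 2 (-0.66, adjusted p = 0.0275) and TGFB1 higher without CDK6 replicate 3 (0.23, adjusted p = 0.0254).

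**Figure D5:**
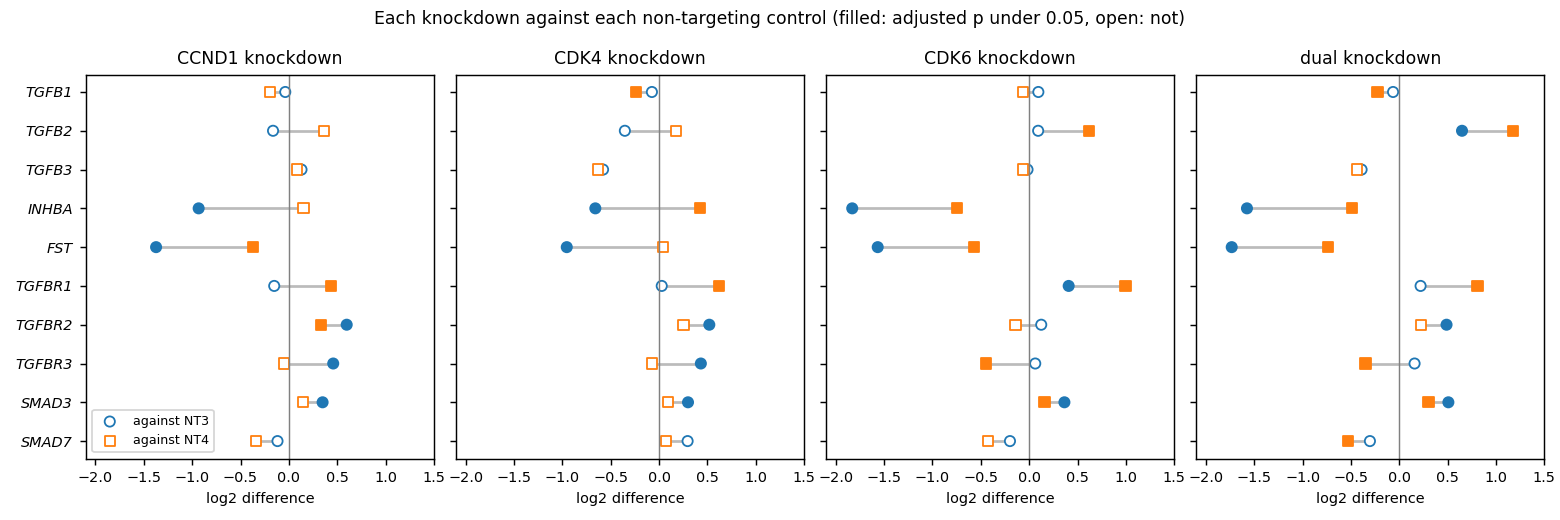
log2 differences of the 10 genes in each knockdown against NT3 (circles) and against NT4 (squares), joined by a grey line; filled points had an adjusted p under 0.05. INHBA in CDK4 knockdown was filled on both sides of 0, at -0.66 against NT3 and 0.43 against NT4, whereas FST in CDK6 knockdown was filled below 0 for both, at -1.57 and -0.57.

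The genes around these 10 were read in 7 lists of pathway members, chosen with earlier results of these data known. Their counts stand beside the shares of all tested genes that were called: 32.6% higher and 36.1% lower in senescent controls, 14.7% and 13.1% in NT4 against NT3, 16.7% and 14.4% in CCND1, 8.46% and 7.55% in CDK4, 21.1% and 20.8% in CDK6, and 22.5% and 21.5% in dual knockdown. Called in the same direction against both controls were 52.4% of all tested genes in senescent controls, 11.6% in CCND1, 4.67% in CDK4, 21% in CDK6 and 23.6% in dual knockdown. Nothing particular to a list is read from these counts. The list named for latency and activation of TGF-beta had called genes in 1 direction in 3 knockdowns. Of its 13 tested genes (LTBP1 to LTBP4, LRRC32, FURIN, ITGAV, ITGB5, ITGB8, THBS1, FBN1, FBN2 and EMILIN1) 11 higher and 0 lower genes were called in CDK6, 9 higher and 0 lower in dual, 9 higher and 0 lower in CCND1 and 4 higher and 1 lower in CDK4 knockdown. Medians were 0.45, 0.50, 0.39 and 0.15, against medians of all tested genes within 0.011 of 0. ITGB8, the integrin subunit that frees latent TGF-beta, had the largest rise in the first 3, at 0.92, 0.81 and 1.24. In senescent controls 4 higher and 4 lower were called. ITGB8 was lower there than in proliferating cells (-1.01, named here after its values were seen), LTBP4, a latent TGF-beta binding protein, had the largest fall, -1.17, and its relative LTBP3 the largest rise, 1.24.

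NT4 differed from NT3 in the same list, with 8 higher and 0 lower and FBN1, the fibrillin that anchors latent complexes, highest at 0.97. Against NT4 alone the counts fell to 4 higher and 0 lower in CDK6, 5 higher and 0 lower in dual and 6 higher and 0 lower in CCND1 knockdown. Called against both controls were 4 higher and 0 lower, 5 higher and 0 lower and 6 higher and 0 lower. Without NT3 replicate 3 the counts against the mean of the controls were 11 higher and 0 lower, 9 higher and 0 lower and 9 higher and 0 lower. Against both controls ITGB8 rose by 1.09 and 0.75 in CDK6 and by 1.41 and 1.07 in CCND1 knockdown.

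Among extracellular antagonists and binders other than FST, 11 were tested, and 7 higher and 1 lower were called in CDK6, 5 higher and 2 lower in dual, 7 higher and 0 lower in CCND1 and 1 higher and 2 lower in CDK4 knockdown, and against both controls 6 higher and 0 lower, 4 higher and 1 lower, 5 higher and 0 lower and 1 higher and 1 lower. FSTL3, the follistatin relative that also binds activin, had the largest rise in dual knockdown, 0.90, from means of 1207 in NT3 and 943 in NT4 to 1996. GREM1, a BMP antagonist, had the called fall in CDK6 knockdown, -0.33, which was called against NT3 alone and not against NT4 alone. CHRD had the largest rise in CCND1 knockdown, 1.25, from means of only 3.88 and 5.83 to 12.2, and it too was called against NT3 alone and not against NT4 alone. In senescent controls 3 higher and 5 lower were called, and CHRDL1, a BMP antagonist related to CHRD, had the largest fall, -1.24.

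Among 10 other tested ligands, GDF15, a stress-induced member of the superfamily, rose most in senescent controls, by 4.81, and fell most in CCND1, CDK6 and dual knockdown, at -1.09, -1.72 and -1.66. Its mean was 204 in proliferating cells, 6019 and 5575 in the controls and 1752 in CDK6 knockdown. INHBE, a further inhibin subunit gene, had the largest fall with senescence, -1.18, and in CDK4 knockdown, -0.67. INHBB, which encodes the subunit of activin B, was the largest fall of NT4 against NT3, -1.20. In all, 5 higher and 3 lower were called in senescent controls, 1 higher and 3 lower in CCND1, 0 higher and 2 lower in CDK4, 1 higher and 3 lower in CDK6 and 2 higher and 3 lower in dual knockdown. Against both controls these counts were 4 higher and 2 lower, 0 higher and 2 lower, 0 higher and 1 lower, 0 higher and 3 lower and 0 higher and 3 lower, in the same order.

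Of 11 other receptors and co-receptors, 6 higher and 3 lower were called in senescent controls, 3 higher and 0 lower in CCND1, 1 higher and 1 lower in CDK4, 4 higher and 1 lower in CDK6 and 3 higher and 1 lower in dual knockdown. Against both controls these counts were 5 higher and 1 lower, 1 higher and 0 lower, 0 higher and 1 lower, 2 higher and 1 lower and 2 higher and 1 lower. ACVR1B, the type I receptor of activin, had the largest fall in CDK4, CDK6 and dual knockdown, -0.35, -0.74 and -0.65, each also called against both controls. BMPR1B, a type I BMP receptor, had the largest rise in CCND1, CDK6 and dual knockdown, 0.52, 0.74 and 0.62. ACVR1C had the largest rise with senescence, from a mean of 2.35 to 5.87 and 14.0, and was called for NT4 alone and not for NT3 alone. BAMBI, a decoy receptor that TGF-beta induces, had the largest rise in CDK4 knockdown, 0.27, which was 0.13 against NT3, not called, and 0.42 against NT4.

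Of 16 other SMADs and regulators, 7 higher and 7 lower were called in senescent controls, 5 higher and 4 lower in CCND1, 2 higher and 3 lower in CDK4, 6 higher and 4 lower in CDK6 and 4 higher and 5 lower in dual knockdown. Called against both controls were 6 higher and 5 lower, 2 higher and 2 lower, 0 higher and 3 lower, 3 higher and 2 lower and 1 higher and 4 lower. The inhibitory SMAD6 had the largest fall with senescence, -1.04, and the largest rise of NT4 over NT3, 1.63. Its means were 147 in proliferating cells, 41.1 in NT3 and 124 in NT4, and the fall was called for NT3 alone and not for NT4 alone. TGIF1, a repressor that binds SMADs, had the largest fall in CCND1, CDK6 and dual knockdown, -0.65, -0.84 and -0.93, each called against both controls.

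Of 22 tested genes known to rise when fibroblasts receive TGF-beta, 9 higher and 8 lower were called in senescent controls, 9 higher and 5 lower in CCND1, 5 higher and 4 lower in CDK4, 9 higher and 9 lower in CDK6 and 10 higher and 7 lower in dual knockdown. Against both controls they were 8 higher and 5 lower in senescent controls, 4 higher and 3 lower in CCND1, 1 higher and 1 lower in CDK4, 4 higher and 8 lower in CDK6 and 6 higher and 6 lower in dual knockdown. The largest rise was that of ACTA2, smooth muscle actin, in CCND1 knockdown, 0.92, of TAGLN, an actin-binding protein, in dual knockdown, 1.17, and of TSPAN2, a tetraspanin, in CDK6 knockdown, 1.17. COMP, a matrix protein listed at 0 in all proliferating libraries, averaged 17.2 and 14.8 in the controls. The largest falls were in CDKN2B, the inhibitor of CDK4 and CDK6, in CDK6 and CCND1 knockdown, -1.66 and -0.77, and in the cytokine IL11 in dual knockdown, -1.03. In CDK4 knockdown POSTN, the matrix protein periostin, rose most, 0.67, and ACTA2 fell most, -0.45.

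The 5 genes known to rise with BMP were all called higher in senescent controls, with ID1 highest at 1.94, and 4 of them held against both controls. ID1, ID2 and ID3 encode inhibitors of helix-loop-helix transcription factors. In CDK6 knockdown 2 higher and 1 lower were called and in dual knockdown 2 higher and 3 lower, with HEY1, a transcriptional repressor, the largest fall at -1.28 and -1.27 and ID2 the largest rise at 0.49 and 0.50. None was called in the same direction against both controls in any knockdown.

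The genes most like each member over the 18 irradiated libraries were found by Pearson correlation of log2 values among tested genes with a mean of at least 100, as a description; the libraries share groups, controls and header series. INHBA was most like IL6 (r = 0.97), TNIP1 (0.97) and MAFF (0.96). IL6, the senescence cytokine, averaged 74.9 in proliferating cells, 2245 in NT3, 514 in NT4 and 275 in CDK6 knockdown. FST was most like IFITM3 (0.96), IFRD1 (0.96) and TMEM156 (0.96). IFITM3, an interferon-induced membrane protein, was lower in proliferating than in irradiated cells, at 3123, opposite to FST. SMAD3 was most like LTBP1 (0.96), TGFB2 like DAG1 (0.91), TGFBR1 like SCARB2 (0.95), TGFBR2 like CALU (0.95) and TGFBR3 like CBX5 (0.87). SMAD7 was most like SPRY4 (0.89), followed by the BMP-induced ID1 (0.88) and the TGF-beta-induced KLF10 (0.87). TGFB1 and TGFB3 had no gene above 0.78.

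Annotated exons of other genes overlap 5 of the 10 on the opposite strand: TGFB1 shares 215 bases with HNRNPUL1, TGFB2 701 with TGFB2-AS1, TGFB3 163 with TGFB3-AS1, INHBA 248 with INHBA-AS1 and SMAD3 182 with an unnamed gene. TGFB2 also shares 1371 bases with TGFB2-OT1 on its own strand. Whether reads were counted by strand is not given in the sources used here, so reads of these genes and their partners cannot be told apart within the shared bases.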

How the data were processed

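The deposited expression signal is a normalised count for each gene in each library, per the file headers. Dividing it by 1 constant per library gave whole reads for 100% of values, within a tolerance of 0.01. The submitters' processing notes name Trimmomatic 0.38.1, HISAT2 2.2.1, featureCounts 2.0.3, DESeq2 2.11.40.8, FastQC 0.74 and MultiQC, and the build hg38; annotation and strand setting are not given in the sources used here. The table lists 16383 genes, 19 without a symbol.

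Genes at 10 or more in at least 3 libraries (11579) were fitted with limma 3.58.1 in R 4.3.3 on log2(value + 1), with 1 mean per group and trended empirical Bayes variances. Tests were two-sided and adjusted by the Benjamini-Hochberg method within each of 8 comparisons, at 0.05. On simulated data with the CDK6 design, 68.69% of genes changed by 0.5 and 90% changed by 1 on the log2 scale were recovered. There NT3 and NT4 shared the same mean for each gene, whereas 27.8% of genes were called between them in these data. Alternative settings were another pseudocount (0.1 or 10), a mean of at least 100 or nothing as the filter, quantile normalization, median centring, the compared groups alone, NT3 or NT4 alone, edgeR 4.0.16 and DESeq2 1.42.0 on the recovered reads, leaving out each library, and the header series as a block, added after the data were seen. Recomputed size factors were 0.991 to 1.02 times the deposited ones. Replicates follow column order and are names only.

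The 10 genes and the pathway lists were chosen with earlier results of these data known. Named genes were all 10, the largest called rise and fall of each list in a comparison, and the 3 genes most correlated with each member; 1 gene that this rule names is not reported here. Positions come from GENCODE 44 and promoter windows from RefSeq, both on GRCh38; 10 of 10 genes matched.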

Additional observations from a re-analysis of the deposited data

Results flagged for a closer look

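For 2 of the 10 genes the effect of CDK4 siRNA was called different with and without CDK6 siRNA, but neither call was stable. The test was that of departure from additivity in the dual knockdown (limma, Benjamini-Hochberg adjustment over 11579 genes, of which 6.35% were called). For TGFB2 the departure was 0.65 (SE 0.18, adjusted p = 0.0341), with group means of 743 in CDK4, 1012 in CDK6 and 1486 in dual knockdown. For TGFBR1 it was -0.51 (SE 0.14, adjusted p = 0.0359), with means of 1571, 2046 and 1798. With NT3 alone as the reference TGFBR1 gave -0.22 (adjusted p = 0.349), and with NT4 alone TGFB2 gave 0.38 (adjusted p = 0.33). With 1 library left out at a time the departure ran from 0.54 to 0.75 for TGFB2 and from -0.59 to -0.44 for TGFBR1. Each call was lost in 8 of those fits. Both were also lost in the limma fit of the compared groups alone (adjusted p = 0.0781 and 0.0721), and TGFBR1 with no filter (adjusted p = 0.0522). Over all 27 alternative settings TGFB2 was not called in 10 and TGFBR1 in 11.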

How the results depend on the processing

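Of 1632 recomputed differences of the 10 genes, 1488 kept direction and call, 47 lost the call, 38 gained it and 59 changed sign; none of those 59 was called both times. TGFB3 has no value under the filter on a mean of 100. The departure of the dual knockdown was the least stable: 735 genes and 2 members were called, against 1 member with no filter, 394 genes and 0 members with the compared groups alone, 1899 genes with NT3 alone, 455 genes and 1 member with NT4 alone, and 442 to 1436 genes and 0 to 3 members with 1 library left out. With the compared groups alone NT4 against NT3 gave 955 genes and 4 members, CCND1 2269 genes, and CDK4 knockdown 787 genes and 1 member. CDK4 knockdown gave 2962 genes with NT3 alone and 1061 to 2694 with 1 library left out, and CCND1 knockdown 2235 with NT4 alone. The cause was not tested. TGFB3 rested on 10 to 34 reads per library.

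Signs changed as follows, with log2 values. In senescent controls SMAD3 was 0.024 with median centring, 0.0074 with quantile normalization and 0.014 with NT4 alone. There TGFB3 was -0.15 with quantile normalization, and TGFB1 -0.079 with NT3 alone, -0.00015 with edgeR and -0.030 to 0.027 with 1 library left out. In CDK6 knockdown TGFBR2 was 0.0034 with median centring, 0.12 with NT3 alone and -0.095 to 0.047 with 1 library left out. TGFB1 there was -0.023 with quantile normalization, -0.066 with NT4 alone and -0.043 to 0.075 with 1 left out, TGFB3 was 0.16 with quantile normalization, 0.042 with edgeR, 0.032 with DESeq2 and -0.36 to 0.21 with 1 left out, and TGFBR3 was 0.063 with NT3 alone. In dual knockdown TGFB3 was 0.0071 with quantile normalization and TGFBR3 0.16 with NT3 alone. SMAD3 in CDK6 against CDK4 knockdown was -0.048 with quantile normalization. In CCND1 knockdown TGFB2 was -0.16 and TGFBR1 -0.15 with NT3 alone, INHBA 0.15 and TGFBR3 -0.049 with NT4 alone, and with 1 library left out TGFB2 ran -0.0045 to 0.20 and TGFB3 -0.025 to 0.28. In CDK4 knockdown with NT4 alone TGFB2 was 0.17, INHBA 0.43, FST 0.045 and TGFBR3 -0.075, and TGFB2 ran -0.19 to 0.011 with 1 left out. In the departure with NT4 alone TGFB1 was 0.075, INHBA -0.17, FST -0.21, TGFBR2 0.11, TGFBR3 0.17 and SMAD3 0.050, and with 1 library left out TGFB1 ran -0.066 to 0.052, TGFB3 -0.021 to 0.55 and TGFBR2 -0.078 to 0.064. TGFB3 in NT4 against NT3 ran -0.15 to 0.28 with 1 left out. No paired analysis was possible because the columns of the table carry no replicate number from the labels. The only matched fit used the header series as a block, with the changed calls given in the report. Same-series libraries of different groups had a median correlation of deviations of 0.037 over 45 pairs, from -0.11 to 0.10. For different-series libraries of different groups it was -0.017 over 90 pairs, from -0.14 to 0.16.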
